A study of Mus musculus with 4 samples.

Results

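The cells described here are the microglia of the hippocampus whose RNA held the most Ccl3 and Ccl4, 2 secreted chemokines. They were chosen by a rule on measured values. A barcode counted as a microglial cell when it had at least 200 genes and 1500 unique molecular identifiers (UMIs, each marking 1 captured RNA molecule), at least 5 UMIs summed over P2ry12, Cx3cr1, Tmem119 and Gpr34, and at most 2 summed over Mog, Pdgfra, Gja1, Cldn5, Snap25 and Mrc1. The 1940 microglia of the 4 libraries, out of 6464 barcodes, were pooled and ranked by the share of their UMIs that came from Ccl3 and Ccl4, and the top 25% were kept. These 485 cells are called chemokine-high microglia, and the remaining 1455 are called other microglia.

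Single-cell RNA sequencing was performed on dissociated hippocampi of male mice aged 3 months on a C57BL/6J background. The groups were 2 wildtype (WT) mice and 2 Dp2Yey littermates, which model Down syndrome and carry on 1 of their copies of chromosome 10 a duplication of the segment from Prmt2 through Pdxk, so that its genes are present in 3 copies. Each mouse gave 1 library, and the mice were prepared on consecutive days, 1 of each genotype a day. No treatment is given in the labels, and the tissue was dissociated with warm enzymes before debris was removed. In each sentence that lists 4 values they stand in the order WT replicate 1, WT replicate 2, Dp2Yey replicate 1 and Dp2Yey replicate 2. The libraries held 1039, 1708, 1372 and 2345 barcodes with 3002546, 6848466, 5112759 and 9612011 UMIs, and WT replicate 1 had the lowest median depth, 2049 UMIs per barcode against 3669.5, 3386.5 and 3696. Of the barcode sequences, 8 occurred in more than 1 library, and 2 chemokine-high cells carried such a barcode.

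Microglia are the resident macrophages of the brain. Ccl3 and Ccl4 are secreted ligands that attract leukocytes, and their transcription is rapidly induced by the factor NF-kB when a macrophage senses damage or microbial products. Microglia also induce both genes when tissue is dissociated into single cells, together with immediate early genes and cytokines, so a microglial cell with much chemokine RNA can reflect the living brain, the preparation or both, which cannot be told apart from the labels of these libraries.

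The top 25% began where Ccl3 and Ccl4 made up 0.724% of a cell's UMIs. The last cells inside stood at 0.727, 0.729 and 0.733%, and the first cells outside at 0.723, 0.722 and 0.721%. There was no gap at the limit, with 65 cells within 10% of it, 26 inside and 39 outside. Among the 485 cells the median share was 1.42% (interquartile range 1.03 to 2.14%), and the highest was 9.33%. Other microglia had a median of 0.0370%, and 572 microglia, 29.5% of all, had no UMI of either gene.

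Ccl4 was the more abundant of the pair. Chemokine-high microglia had a median of 51 Ccl4 UMIs per cell and at most 318, and a median of 14 Ccl3 UMIs and at most 182. Levels summed per library are given in UPM, the UMIs-per-million of the cells summed. Ccl4 stood at 14338, 12736, 13620 and 13745 UPM in chemokine-high cells and at 1310, 1073, 1117 and 1002 in other microglia. Ccl3 stood at 4004, 3937, 3948 and 4775 UPM in chemokine-high cells and at 437, 501, 476 and 466 in other microglia. These values follow from the rule and were not tested. The ratio of Ccl4 to Ccl3 UMIs in chemokine-high cells was 3.58, 3.23, 3.45 and 2.88, and 39 of the 485 cells had more Ccl3 than Ccl4. The 3 cells that lacked Ccl4 are among these 39, and 50 cells lacked Ccl3. Across all microglia of a library the counts of the 2 genes were related, with Spearman coefficients across cells of 0.566 (276 cells), 0.592 (514 cells), 0.542 (369 cells) and 0.577 (781 cells), where cells share a library and differ in depth. Within the chemokine-high cells, a range narrowed by the rule itself, the coefficients were 0.222 (65 cells), 0.106 (140 cells), 0.296 (86 cells) and 0.238 (194 cells).

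The 485 cells held 79.8% of the Ccl3 and Ccl4 UMIs of microglia and 76.9% of those of all barcodes. Oligodendrocyte barcodes, which should make neither gene, held 2.02 UPM of Ccl3 and 4.59 UPM of Ccl4, a measure of free RNA in the droplets. Among the other barcodes of at least 1500 UMIs, 6 of 2638 reached the limit, 3 of them among the 41 barcodes with border macrophage genes. Of 203 microglia-like barcodes with fewer UMIs, 22 reached it. Chemokine-high cells had a median of 4283 UMIs and 1662 genes and other microglia 4154 UMIs and 1663 genes. By library the median was 4134, 4436, 4692.5 and 4188.5 UMIs in chemokine-high cells and 3739, 4211, 4365 and 4165 in other microglia, higher in each. When each cell was thinned to 1500 UMIs, 455 of the 485 cells (93.8%) were still in the top 25%.

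**Figure D1:**
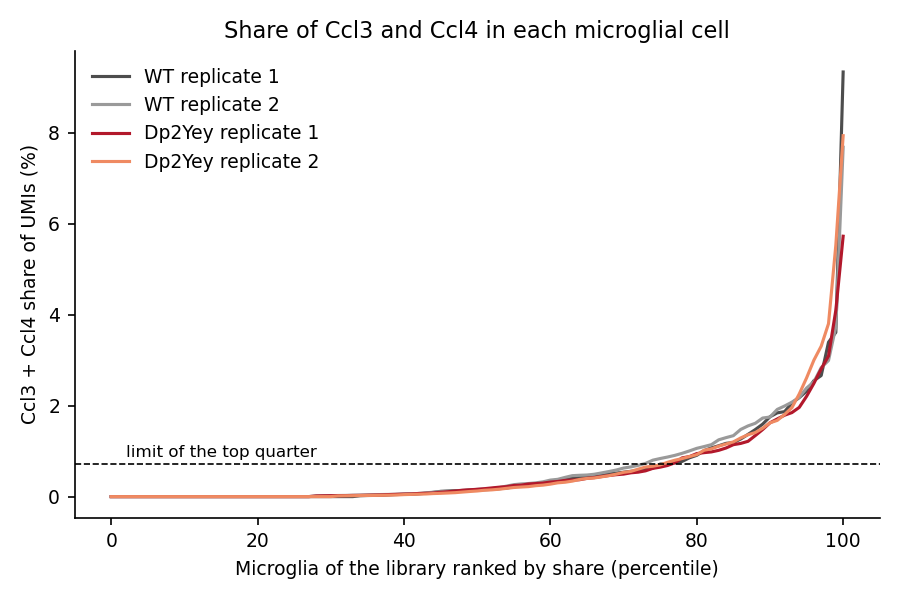
The share of UMIs from Ccl3 and Ccl4 (vertical axis, %) is plotted for the microglia of each library ranked from lowest to highest (horizontal axis, percentile of the library's microglia), with 1 line per library and a dashed line at the limit of the top 25%, 0.724%. The 4 lines run close together, bend upwards without a step at the limit, and end between 5.72 and 9.33%.

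The gate genes that define microglia were present in the chemokine-high cells. P2ry12, a purine receptor through which resting microglia sense nucleotides, stood at 1808, 1972, 1778 and 1934 UPM against 2355, 2524, 2194 and 2200 in other microglia, lower in each library. Cx3cr1, the fractalkine receptor, stood at 3847, 3773, 4037 and 4624 against 4242, 4328, 4431 and 4669. Tmem119, a microglial surface protein, stood at 910, 854, 960 and 1002 against 1168, 1004, 1069 and 1029. These 3 genes and Gpr34 were part of the gate and were not tested. Of 8 further microglia genes that the gate did not use, all 8 had UMIs, with C1qa as the most abundant. Their summed level was 19314, 17732, 19292 and 18982 UPM against 20147, 19484, 19884.5 and 19615 in other microglia, lower in each library. The label of microglia therefore matched the markers.

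The gate itself limited Mrc1, Mog, Pdgfra, Gja1, Cldn5 and Snap25, which are among the markers of other cells counted here, so their low counts follow from the rule. Of 7 border macrophage markers 2 had UMIs (8 UMIs in 485 cells), with Pf4, Cd163, Lyve1, F13a1 and Cbr2 at 0. Of 6 monocyte and neutrophil markers 2 had UMIs (15 UMIs), with Ly6c2, S100a8, S100a9 and Retnlg at 0. Astrocyte markers had 512 UMIs over 6 of 6 genes, at 142, 184, 282 and 270 UPM with Slc1a3 as the most abundant, and oligodendrocyte markers had 489 UMIs over 6 of 6 genes, at 128, 270, 195 and 222 UPM with Mbp as the most abundant. Neuron markers had 43 UMIs over 6 of 6 genes and endothelial markers 51 UMIs over 4 of 5, with Ly6c1 at 0. The median per cell was 0 UMIs for each of these lists over the 485 cells.

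Chemokine-high microglia carried more RNA of inflammatory ligands than other microglia of the same mice, among them the cytokines Tnf, Csf1, Il1b and Il1a and the chemokine Ccl2, which were called under each setting tried. Inhibitors and targets of NF-kB and several immediate early transcription factors were also higher. Genes of the homeostatic microglia program, complement C1q, ribosomal proteins and the mitochondrial genome did not pass the test in either direction. For this comparison the UMIs of each library were summed over the cells of each group, Ccl3 and Ccl4 were taken out, and levels are given as CPM, counts-per-million after TMM scaling. Summed levels and shares of gene lists in this comparison were taken over UMIs without Ccl3 and Ccl4. Those of cell type markers were taken over all UMIs. Of 7084 genes tested with edgeR's quasi-likelihood test, with the library as a block, 82 were higher in chemokine-high cells at a Benjamini-Hochberg adjusted p under 0.01 (1.16% of the genes tested) and 8 were lower (0.113%), and the median log2 difference of all genes was 0.00.

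Of the 82 higher genes, 69 were higher in all 4 libraries, 21 were higher by more than 2-fold, and 53 belonged to a gene list. With 1 library left out at a time, 35 of the 82 passed in each of the 4 fits, and 51 passed without WT replicate 2 and 45 without Dp2Yey replicate 2, so that fewer passed by over 1.5 times. DESeq2 called 37 of the 82, and 63 were called after the cell with most UMIs of a gene had been left out of each sum. The 11 genes called higher under each of the 19 alternative settings were Tnf, Csf1, Il1a, Il1b, Ccl2, Egr3, Id2, Nfkbid, Bcl2a1b, Hmox1 and Cstb. Counting UMIs without the library as a block, 23 of the 82 passed. The genes tested did not choose the cells, except that their UMIs are part of each cell's total.

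**Figure D2:**
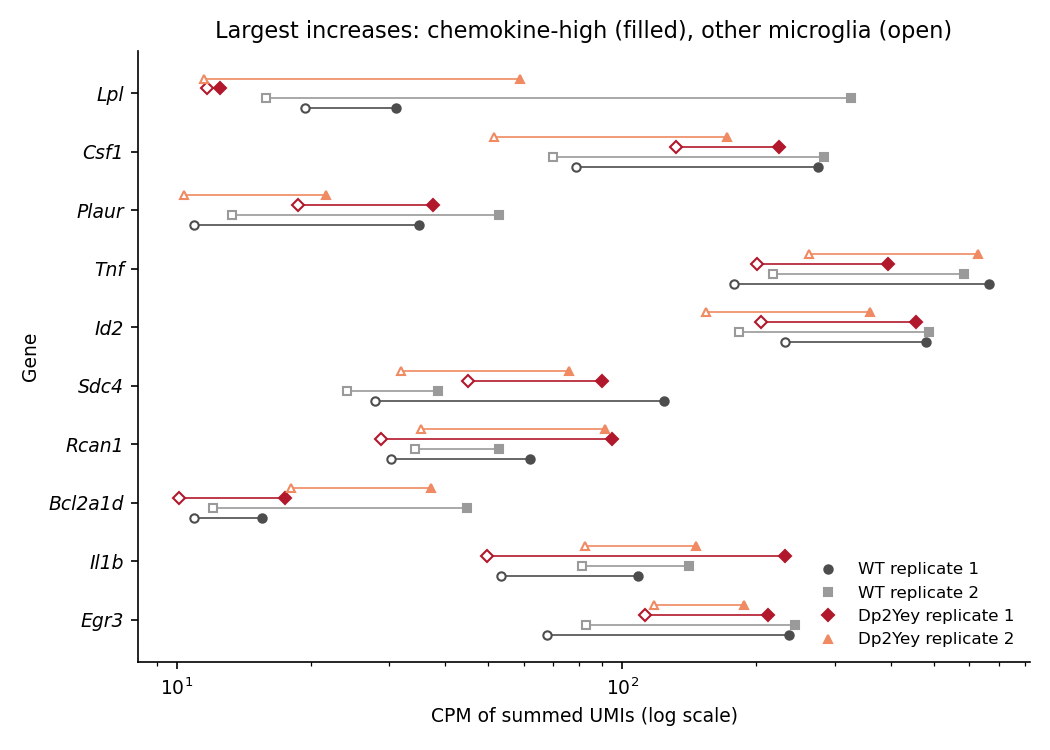
For the 10 genes of largest increase under the rule for named genes, CPM of summed UMIs (horizontal axis, log scale) is shown in chemokine-high microglia (filled) and other microglia (open), with a line joining the 2 groups of each library. Tnf, Id2 and Csf1 have each filled symbol to the right of each open one, while Lpl has 1 library, WT replicate 2, far to the right at 325 CPM.

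Cytokines, summed as a list, were higher in chemokine-high cells of each library. Their summed level, with Ccl3 and Ccl4 left out of the total, was 2549, 2460, 2295 and 2235 UPM in chemokine-high cells and 1302, 1478, 1518 and 1468 in other microglia, a ratio of 1.96, 1.66, 1.51 and 1.52. Here and for each list below, a gene can pass the filter on low counts through the group in which it is high. Counts and medians of the tested genes are therefore no measure of a whole list. Of 26 cytokine genes 11 had enough UMIs to be tested, and 5 were called higher and none lower by edgeR. Of the 11, 8 were above 0, and the median log2 difference of the 11 was 0.32 against 0.00 for all genes. Without WT replicate 2 that median was 0.14, and without Dp2Yey replicate 2 it was 0.58. The 6 that did not pass included Tgfb1, an anti-inflammatory factor that microglia make steadily, at 329, 316, 285 and 298 CPM against 306, 290, 310 and 301 (log2 difference 0.02).

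Tnf encodes tumor necrosis factor, a cytokine that activates NF-kB in neighbouring cells. It stood at 666, 584, 395 and 627 CPM in chemokine-high microglia and at 178, 217, 201 and 263 CPM in other microglia. Each chemokine-high value lay above each value of other microglia, with Dp2Yey replicate 1 the lowest of the 4. The fold change was 2.57 (log2 1.36, SE 0.09, adjusted p = 2.0e-17, higher in 4 of 4 libraries). Interleukin 1 alpha, an alarm cytokine encoded by Il1a, stood at 992, 919, 964 and 763 CPM against 455, 642, 637 and 567, without overlap (fold 1.54, log2 0.63, SE 0.07, adjusted p = 2.3e-08, 4 of 4 libraries). Il1b, the inducible interleukin 1 ligand, stood at 108, 141, 232 and 147 CPM against 53.3, 81.1, 49.7 and 82.5 (fold 2.22, log2 1.15, SE 0.14, adjusted p = 6.2e-08, 4 of 4 libraries). Its groups did not overlap, and Dp2Yey replicate 1 was the highest.

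Csf1, the growth factor on whose receptor microglia depend for survival, had the largest fold change among the cytokines. It stood at 275, 284, 225 and 172 CPM in chemokine-high cells and at 78.7, 69.7, 132 and 51.4 CPM in other microglia. The groups did not overlap, and the gap was narrowest in Dp2Yey replicate 1. The fold change was 2.98 (log2 1.57, SE 0.12, adjusted p = 3.8e-14, 4 of 4 libraries). Osm, a cytokine of the interleukin 6 family that was named after its values were seen, stood at 89.1, 99.4, 67.5 and 64.9 CPM against 39.98, 36.1, 37.3 and 37.6 (log2 1.06, SE 0.16, adjusted p = 8.6e-06, 4 of 4 libraries). With cells thinned to 1500 UMIs Osm did not pass, at a log2 difference of 0.91.

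The share of cells with a UMI of these transcripts was compared at equal depth. With each cell thinned to 1500 UMIs, Tnf was found in 30.5% of chemokine-high cells, 18.1% of other microglia and 0.105% of oligodendrocyte barcodes, and without thinning in 48.7, 34.7 and 0.211%, at median depths of 4283, 4154 and 5086 UMIs. Il1a was found in 53.0, 39.9 and 0% of cells after thinning and in 73.0, 59.9 and 0.421% before it. Il1b was rare, in 7.84, 4.81 and 0% after thinning and in 13.4, 8.66 and 0% before. Csf1 was found in 13.4, 5.77 and 9.48% after thinning and in 23.1, 12.9 and 29.5% before, so that oligodendrocyte barcodes held it too.

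Other chemokines were higher too, though unevenly between mice. Their summed level, with Ccl3 and Ccl4 left out of the list and of the total, was 1202, 1803, 1232 and 1518 UPM against 823, 958, 800 and 1078 in other microglia. Of 28 in the file 7 were tested, and genes pass the filter on low counts also through the group in which they are high, so the 6 called higher are no measure of the list. Ccl2, which attracts monocytes through Ccr2, stood at 244, 204, 190 and 315 CPM against 63.0, 125, 85.5 and 152, without overlap (fold 2.12, log2 1.08, SE 0.11, adjusted p = 2.0e-10, 4 of 4 libraries). Ccl9, a ligand of Ccr1, stood at 252, 319, 337 and 219 CPM against 213, 162, 221 and 147 (log2 0.64, SE 0.09, adjusted p = 3.4e-06, 4 of 4 libraries), where the lowest chemokine-high value lay below the highest of the others. Ccl9 did not pass in the top 10% of the share, at 0.16, with thinned cells, at 0.50, or without the library as a block, at 0.61.

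Ccl12 and Cxcl10 leaned on 1 cell. Ccl12, a monocyte-attracting ligand of Ccr2, stood at 352, 673, 240 and 503 CPM against 224, 309, 246 and 434 (log2 0.52, SE 0.10, adjusted p = 5.7e-04, 3 of 4 libraries), and 0.24 without WT replicate 2. In that library 1 chemokine-high cell of 6721 UMIs held 169 of 420 Ccl12 UMIs and 146 of 181 Cxcl10 UMIs. Cxcl10, an interferon-induced ligand of Cxcr3, had a log2 difference of 1.14 (adjusted p = 6.9e-05, 3 of 4 libraries) and of -0.02 with the cell of most UMIs left out. Ccl6, another ligand of Ccr1, stood at 209, 205, 177 and 201 CPM against 164, 183, 138 and 172 and did not pass (log2 0.25, adjusted p = 0.30, 4 of 4 libraries).

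Chemokine receptors were mostly too low to be tested. Of 16 chemokine receptor genes 2 were tested and 1 was called. Ccrl2, an atypical receptor that binds chemerin without signalling, stood at 260, 295, 290 and 229 CPM against 154, 188, 230 and 183 (log2 0.48, SE 0.09, adjusted p = 4.4e-04, 4 of 4 libraries). Its groups overlapped by 1 value, and it did not pass without WT replicate 2, at 0.41, nor with DESeq2, at 0.50.

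NF-kB is the transcription factor family that drives many of these ligands, and its own inhibitors are among its targets. Of 35 genes of its factors, inhibitors and targets 28 were tested, 13 were called higher and none lower by edgeR, 20 of the 28 were above 0, and their median log2 difference was 0.34. Nfkbia, the inhibitor that holds NF-kB in the cytoplasm, stood at 2127, 1983, 1779 and 1618 CPM against 1234, 1332, 1400 and 1461, without overlap (fold 1.36, log2 0.45, SE 0.07, adjusted p = 3.9e-06, 4 of 4 libraries). The gap was widest in WT replicate 1 and narrowest in Dp2Yey replicate 2, and the gene did not pass without the library as a block, at 0.46. Nfkbiz, a nuclear inhibitor and coactivator, stood at 1611, 1255, 1272 and 1031 CPM against 1022, 951, 1218 and 886 (log2 0.32, SE 0.07, adjusted p = 0.0016, 4 of 4 libraries). Leaving out WT replicate 1 (0.23), WT replicate 2 (0.29) or Dp2Yey replicate 2 (0.36) ended the call, as did DESeq2 (0.33). Plek, a phosphoprotein of the cytoskeleton of blood cells, stood at 934, 1307, 902 and 995 CPM against 578, 949, 894 and 772 (log2 0.37, adjusted p = 5.1e-04, 4 of 4 libraries), and likewise did not pass without WT replicate 1 (0.30), WT replicate 2 (0.33) or Dp2Yey replicate 2 (0.36). Marcks, the most abundant kinase substrate of the list, did not pass (log2 -0.14, adjusted p = 0.31, lower in 4 of 4 libraries).

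Further members of the same list were chosen after their values were seen. Cd83, a surface protein of activated antigen-presenting cells, stood at 1441, 1151, 1184 and 668 CPM against 681, 745, 860 and 489 (fold 1.56, log2 0.64, SE 0.07, adjusted p = 5.8e-09, 4 of 4 libraries). Dp2Yey replicate 2 was lowest in both groups of cells, so that the groups overlapped although each library showed the gain, and Cd83 did not pass without the library as a block, at 0.65. Cd83 was found in 61.9% of chemokine-high cells, 44.1% of other microglia and 0.211% of oligodendrocyte barcodes after thinning, and in 81.2, 64.9 and 0.632% before. Cd14, the coreceptor for bacterial lipopolysaccharide, stood at 844, 487, 597 and 478 CPM against 277, 382, 362 and 335 (log2 0.73, SE 0.10, adjusted p = 3.4e-07, 4 of 4 libraries), with WT replicate 1 highest. DESeq2 did not call it, at 0.79. Nfkbid, another nuclear inhibitor, stood at 306, 330, 325 and 296 CPM against 176, 212, 232 and 186, without overlap (log2 0.64, SE 0.09, adjusted p = 5.0e-07, 4 of 4 libraries). Bcl2a1b, which protects from apoptosis, was higher in 4 of 4 libraries with a log2 difference of 0.56 (SE 0.07, adjusted p = 1.7e-07), and its reads may stem in part from the near-identical Bcl2a1a and Bcl2a1d. Bcl2a1d, which the rule named, had 15.5, 44.9, 17.5 and 37.2 CPM against 10.9, 12.04, 10.1 and 18.0 (log2 1.22, adjusted p = 0.0022, 4 of 4 libraries) and did not pass without WT replicate 2 (0.92) or Dp2Yey replicate 2 (1.35).

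Promoters of the genes that rose together were searched for the letters bound by NF-kB and AP-1. Sequences were the 250 bases before the transcription start in RefSeq (GRCm38.p6), which matched 60 of the 82 higher genes with 79 promoters. The kB motif, GGG and TTCC with 3 bases of any kind between them on either strand, was in 9 of the 79 promoters (11.4%), against 4.65% of all 32851 promoters and 5.02% of those of the genes tested. The AP-1 motif TGANTCA, on either strand, was in 9 (11.4%), against 6.75% of all promoters and 4.09% of those of the genes tested. Among these 9 were the promoters of the near-identical genes Bcl2a1a, Bcl2a1b and Bcl2a1d. The promoters of Tnf, Id2 and Il1b, not printed here, held neither motif. The genes were chosen by their values, so these shares are a description. The promoters below are those of Ccl3, from which the cells were chosen and which held neither motif in this window, of Csf1 and Sdc4, with the kB match in capitals, and of Plaur, with the AP-1 match in capitals. Ccl3 is read from chr11:83649379-83649628 (minus strand) and Csf1 from chr3:107760470-107760719 (minus strand), with its match from -154 to -145. Sdc4 is read from chr2:164443189-164443438 (minus strand), with its match from -82 to -73, and Plaur from chr7:24462233-24462482 (plus strand), with its match starting at -69.
Ccl3: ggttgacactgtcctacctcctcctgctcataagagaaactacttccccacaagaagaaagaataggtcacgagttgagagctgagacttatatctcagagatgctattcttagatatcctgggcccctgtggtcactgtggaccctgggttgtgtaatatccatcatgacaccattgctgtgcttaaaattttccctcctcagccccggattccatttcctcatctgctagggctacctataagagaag
Csf1: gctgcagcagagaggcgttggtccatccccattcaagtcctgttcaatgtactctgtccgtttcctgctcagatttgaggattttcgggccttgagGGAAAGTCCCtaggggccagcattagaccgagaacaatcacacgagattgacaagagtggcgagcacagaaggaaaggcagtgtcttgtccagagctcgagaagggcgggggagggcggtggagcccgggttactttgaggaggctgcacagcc
Sdc4: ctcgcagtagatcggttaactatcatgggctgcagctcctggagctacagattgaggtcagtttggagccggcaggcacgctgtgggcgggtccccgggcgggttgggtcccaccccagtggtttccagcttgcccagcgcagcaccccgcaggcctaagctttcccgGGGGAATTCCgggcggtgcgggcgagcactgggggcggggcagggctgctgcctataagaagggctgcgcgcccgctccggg
Plaur: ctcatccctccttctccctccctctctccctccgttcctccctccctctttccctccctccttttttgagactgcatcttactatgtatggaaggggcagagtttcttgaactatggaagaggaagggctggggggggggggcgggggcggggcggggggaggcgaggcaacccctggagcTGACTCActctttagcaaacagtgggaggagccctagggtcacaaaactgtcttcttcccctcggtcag

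Immediate early genes encode transcription factors that cells induce within minutes of a stimulus. Their summed share of UMIs other than those of Ccl3 and Ccl4 was 6.64, 5.78, 5.48 and 6.22% in chemokine-high cells and 5.09, 5.37, 5.03 and 5.63% in other microglia. They were abundant in both groups, and the ratio was largest in WT replicate 1. Of 36 genes 31 were tested, 14 were called higher and none lower by edgeR, 27 of the 31 were above 0, and the median log2 difference was 0.28. Egr3 stood at 236, 244, 212 and 187 CPM against 67.8, 83.0, 113 and 118, without overlap (fold 2.17, log2 1.12, SE 0.12, adjusted p = 8.6e-10, 4 of 4 libraries). Fos, a subunit of AP-1, stood at 8115, 6765, 5874 and 6089 CPM against 5496, 5500, 4713 and 5597, without overlap (fold 1.25, log2 0.32, SE 0.05, adjusted p = 5.4e-05, 4 of 4 libraries). Fos was not called without the library as a block, at 0.32. Egr1 stood at 5218, 5226, 5069 and 5062 CPM against 3948, 4543, 4528 and 4617 (log2 0.22, adjusted p = 0.0087, 4 of 4 libraries), and it did not pass when any library was left out, at 0.16, 0.23, 0.24 and 0.25.

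The AP-1 genes Junb and Jun did not pass. Junb stood at 5741, 6159, 4784 and 6569 CPM against 4476, 5753, 4576 and 6036 (log2 0.16, adjusted p = 0.18, 4 of 4 libraries). Jun stood at 7941, 7060, 6373 and 7944 CPM against 6849, 7272, 6293 and 8009 (log2 0.04, adjusted p = 0.89, higher in 2 of 4 libraries). Atf3, a stress-induced repressor chosen after its values were seen, stood at 5543, 4458, 4732 and 4982 CPM against 3399, 3554, 3798 and 3866, without overlap (log2 0.42, SE 0.06, adjusted p = 2.7e-07, 4 of 4 libraries), and did not pass without the library as a block, at 0.43. Atf3 was found in 91.8% of chemokine-high cells, 76.4% of other microglia and 1.58% of oligodendrocyte barcodes after thinning, and in 94.6, 80.4 and 3.48% before.

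A list of genes known to be induced in brain cells by tissue dissociation moved with these groups. Of its 29 tested genes 14 were called higher and 1 lower by edgeR, 27 were above 0, and the median log2 difference was 0.23. Of the 14, 13 are also members of the cytokine, NF-kB or immediate early lists above, the exception being Gem, so that these are largely the same genes. Its summed level in chemokine-high cells relative to other microglia was 1.33, 1.11, 1.11 and 1.11. WT replicate 1 stood apart from the other 3 libraries in this measure, and the part of dissociation in the differences was not tested.

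**Figure D3:**
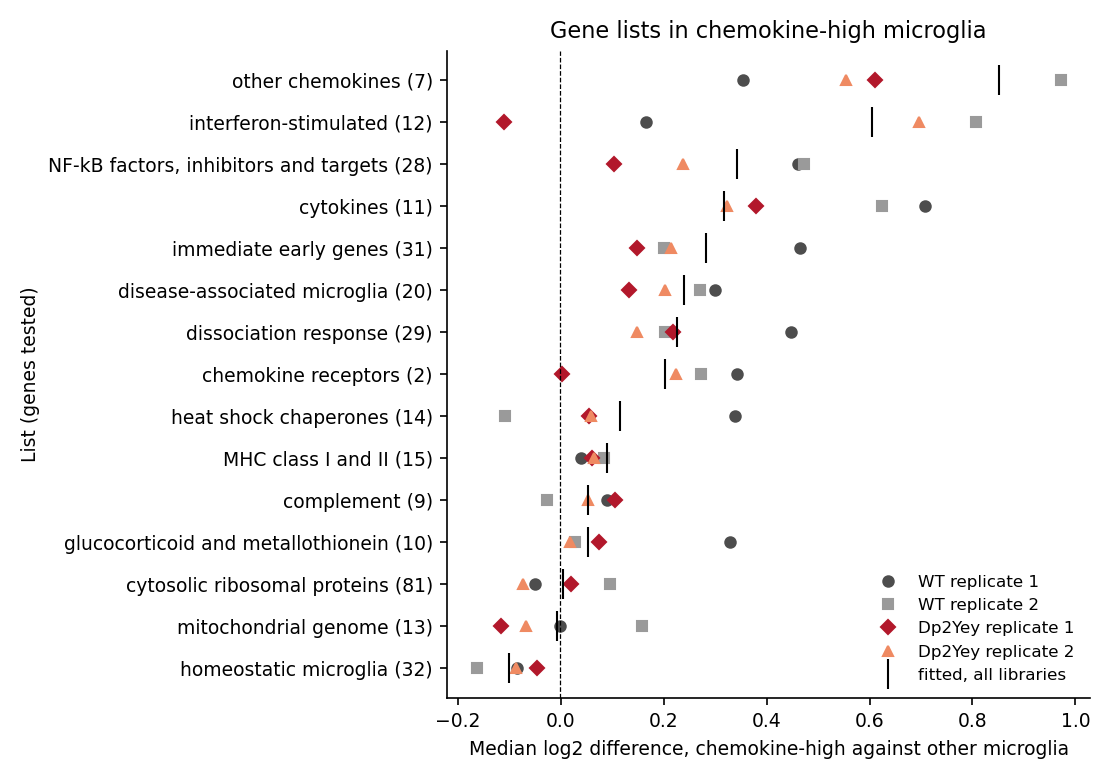
For each gene list (vertical axis, number of genes tested in brackets) the median log2 difference between chemokine-high and other microglia is shown on the horizontal axis, with 1 symbol per library and a bar for the fit to all 4. Chemokines, cytokines, NF-kB genes and immediate early genes lie above 0 in each library. The dissociation, disease-associated, MHC, chemokine receptor, and glucocorticoid and metallothionein lists do so too. The homeostatic list lies below 0 in each, and the interferon-stimulated list spreads from -0.11 to 0.81.

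Several genes of other functions were among the named increases. Id2, an inhibitor of helix-loop-helix transcription factors, stood at 480, 489, 457 and 360 CPM against 231, 183, 205 and 154, without overlap (fold 2.35, log2 1.23, SE 0.08, adjusted p = 1.0e-16, 4 of 4 libraries). Rcan1, an inhibitor of the phosphatase calcineurin, stood at 62.0, 52.9, 94.9 and 91.3 CPM against 30.3, 34.2, 28.8 and 35.3, without overlap (fold 2.33, log2 1.22, SE 0.17, adjusted p = 1.5e-06, 4 of 4 libraries). Thinning cells to 1500 UMIs ended the call for Rcan1, at 1.11. Sdc4, a cell surface proteoglycan, stood at 124, 38.5, 89.9 and 75.7 CPM against 27.9, 24.1, 45.1 and 31.9 (fold 2.34, log2 1.23, SE 0.18, adjusted p = 2.9e-06, 4 of 4 libraries). WT replicate 2 had the smallest gain and its chemokine-high value lay below the highest of the others, and Sdc4 did not pass in the top 10% (1.03) or without the library as a block (1.23). Plaur, the urokinase receptor, stood at 34.9, 52.9, 37.5 and 21.6 CPM against 10.9, 13.3, 18.7 and 10.4 (log2 1.43, SE 0.26, adjusted p = 1.4e-04, 4 of 4 libraries) and did not pass without WT replicate 2, at 1.15, or with the cell of most UMIs left out, at 1.23.

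Lpl, which encodes lipoprotein lipase, had the largest fitted increase, and 1 cell carried much of it. It stood at 31.0, 325, 12.5 and 58.9 CPM against 19.4, 15.8, 11.7 and 11.5 (log2 2.92, SE 0.27, adjusted p = 6.8e-12, 4 of 4 libraries). In WT replicate 2 a single cell of 38267 UMIs held 191 of the 203 Lpl UMIs, and also 69 UMIs of Lgals3, 105 of Spp1 and 29 of Cxcl2. With the cell of most UMIs left out, Lpl had a log2 difference of 1.07 (adjusted p = 0.078), and DESeq2 gave 1.90 with an adjusted p of 0.71. Without WT replicate 2 the difference was 1.60, and there Lpl was still called. Lgals3, a lectin of phagocytes named after its values were seen, had a log2 difference of 2.67 with 3 of 4 libraries higher and of 1.06 without WT replicate 2.

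Homeostatic microglia genes, which mark cells at rest, were lower as a list by a small amount. Their summed share of UMIs other than those of Ccl3 and Ccl4 was 9.51, 8.60, 9.81 and 9.61% in chemokine-high cells and 9.95, 9.33, 10.2 and 9.95% in other microglia. Each library showed the lower value, by a ratio of 0.956, 0.922, 0.963 and 0.966. Of 32 genes tested 6 were above 0, none was called in either direction by edgeR, and the median log2 difference was -0.10. Among the most abundant members, Cst3, Ctss and Sparc had log2 differences of -0.04, 0.06 and -0.12.

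Genes of disease-associated microglia were higher in part. Of 20 tested, 8 were called higher, none lower, 19 were above 0, and the median log2 difference was 0.24. Besides Lpl and Lgals3 these were Cd63, Cd9, Cd52, Ctsb, Ctsz and Fth1. With 1 library left out at a time, 3 of the 8 passed in each fit, Lpl, Cd63 and Cd9. Cd63, a tetraspanin of lysosomes chosen after its values were seen, stood at 500, 686, 565 and 526 CPM against 350, 366, 372 and 329, without overlap (log2 0.70, SE 0.08, adjusted p = 1.5e-09, 4 of 4 libraries). Thinning cells to 1500 UMIs ended the call for Cd63, at 0.42. Fth1, the ferritin heavy chain, stood at 4753, 4320, 4275 and 3941 CPM against 3519, 3528, 3552 and 3690 (log2 0.27, SE 0.05, adjusted p = 0.0011, 4 of 4 libraries) and did not pass without WT replicate 1 (0.21) or Dp2Yey replicate 1 (0.27). Trem2, the lipid receptor on which the full disease-associated program depends, and its adaptor Tyrobp did not pass (log2 0.02 and 0.08).

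Of complement and antigen presentation genes, 1 passed the test. C1qa, which opens the classical pathway, stood at 7813, 7195, 7568 and 7650 CPM against 7339, 7334, 7510 and 7511 (log2 0.02, adjusted p = 0.95, higher in 3 of 4 libraries). Of 9 complement genes tested 1 was called, C5ar1, the receptor for the fragment C5a. Named after its values were seen, it stood at 205, 208, 215 and 181 CPM against 102, 95.7, 127 and 120, without overlap (fold 1.78, log2 0.84, SE 0.10, adjusted p = 7.9e-08, 4 of 4 libraries), and did not pass with thinned cells, at 0.60. None of 15 tested genes of MHC class I and II was called by edgeR, their median log2 difference was 0.09 with 10 above 0, and their summed level relative to other microglia was 1.10, 1.13, 1.02 and 1.08.

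Interferon-stimulated genes, by their summed level, were higher in chemokine-high cells of 2 libraries. Their summed level in chemokine-high cells relative to other microglia was 0.988, 1.91, 0.874 and 2.01, so that replicate 2 of each genotype was higher and replicate 1 was not. Of 30 genes 12 passed the filter on low counts, so these are again no measure of the list, and 2 were called higher. The median log2 difference of the 12 was 0.60, and 0.33 without Dp2Yey replicate 2. Slfn2, an interferon-induced regulator of immune cell quiescence, stood at 58.1, 59.3, 45.0 and 66.1 CPM against 25.4, 29.8, 33.4 and 25.7 (log2 1.04, adjusted p = 1.6e-04, 4 of 4 libraries), and 0.84 without Dp2Yey replicate 2, where it did not pass. Isg15, a ubiquitin-like protein chosen after its values were seen, stood at 23.2, 46.5, 19.99 and 64.9 CPM against 30.3, 12.7, 15.5 and 17.3 (log2 1.34, adjusted p = 3.6e-04, 3 of 4 libraries). Leaving out WT replicate 2 (1.15) or Dp2Yey replicate 2 (0.88) ended the call. Bst2 and Lgals3bp, which the rule named, did not pass (log2 0.43 and 0.48).

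Of 14 heat shock chaperones none was called higher, and the abundant Hspa8, Hsp90ab1, Hspa5 and Hsp90b1 had log2 differences of 0.16, 0.16, 0.07 and 0.02. Hspa1b, which can share reads with Hspa1a, was called lower, at 50.4, 9.62, 112 and 20.4 CPM against 305, 63.4, 100 and 24.6 (log2 -1.12, adjusted p = 0.0016, lower in 3 of 4 libraries). It did not pass without WT replicate 1 (-0.56) or WT replicate 2 (-0.86). Mt1, a metallothionein that binds zinc and copper, stood at 1019, 1367, 1536 and 1634 CPM against 824, 958, 853 and 1249, with overlap between mice (log2 0.52, SE 0.07, adjusted p = 1.7e-07, 4 of 4 libraries), and 0.51 without the library as a block, where it did not pass. The glucocorticoid targets Tsc22d3 and Txnip did not pass, with log2 differences of 0.06 and 0.23. Hmox1, heme oxygenase, was named after its values were seen, at 93.0, 67.3, 74.95 and 102 CPM against 35.1, 40.6, 39.6 and 56.0, without overlap (log2 0.91, SE 0.15, adjusted p = 4.4e-05, 4 of 4 libraries).

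Few genes were lower in chemokine-high cells. Enc1, an actin-binding protein, stood at 34.9, 25.6, 24.98 and 32.4 CPM against 55.7, 67.8, 47.4 and 51.8, without overlap (log2 -0.93, SE 0.19, adjusted p = 0.0017, lower in 4 of 4 libraries), and did not pass without WT replicate 2 (-0.74) or Dp2Yey replicate 2 (-1.10). Maf, a transcription factor of mature macrophages, stood at 709, 580, 527 and 527 CPM against 832, 747, 653 and 625 (log2 -0.29, adjusted p = 0.0087, lower in 4 of 4 libraries). Chd9, a chromatin remodeller, had a log2 difference of -0.50 (adjusted p = 0.0057, lower in 4 of 4 libraries). Neither passed when any library was left out, with values from -0.31 to -0.26 for Maf and from -0.65 to -0.41 for Chd9. The other 4 lower genes besides Hspa1b were the globins Hba-a1, Hba-a2, Hbb-bs and Hbb-bt, with log2 differences of -5.59, -5.06, -5.44 and -5.35. Red blood cell markers had 148 UMIs in chemokine-high cells (29.2, 17.8, 33.8 and 133 UPM over 4 of 5 genes, Hbb-bs the most abundant, Alas2 at 0) and 18055 in other microglia. Of the microglia, 6 held over 1% globin UMIs, all among the other microglia, 1 with 8834 of its 9886 UMIs. Globin UMIs lower a cell's chemokine share, and with those 6 cells removed no globin was called.

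Across the range of the share, cytokine RNA climbed with the chemokines rather than only above the limit. Tnf in microglia with no Ccl3 or Ccl4 UMI stood at 91.5, 157, 174 and 205 UPM, between the median share and the limit at 265, 268, 233 and 348, and from the limit to the 90th percentile at 294, 654, 354 and 444. In the top 10% it stood at 1077, 379, 437 and 980, so that the 2 libraries of each genotype diverged there and WT replicate 2 was below its preceding bin. The top 10% held 28, 61, 35 and 70 cells. The cytokine list in the same libraries stood at 1052, 1244, 1406 and 1324 UPM in cells with no chemokine UMI and at 3432, 2165, 2597 and 3020 in the top 10%. Interferon-stimulated genes stood at 387, 523, 504 and 478 UPM from the limit to the 90th percentile and at 909, 1483, 503 and 1873 in the top 10%. Homeostatic genes stood at 102479, 95269, 99180 and 100594 UPM in cells with none and at 86358, 88132, 98968 and 92513 in the top 10%. The bins are cells of the same mice ranked by the rule, and no test was run on them.

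**Figure D4:**
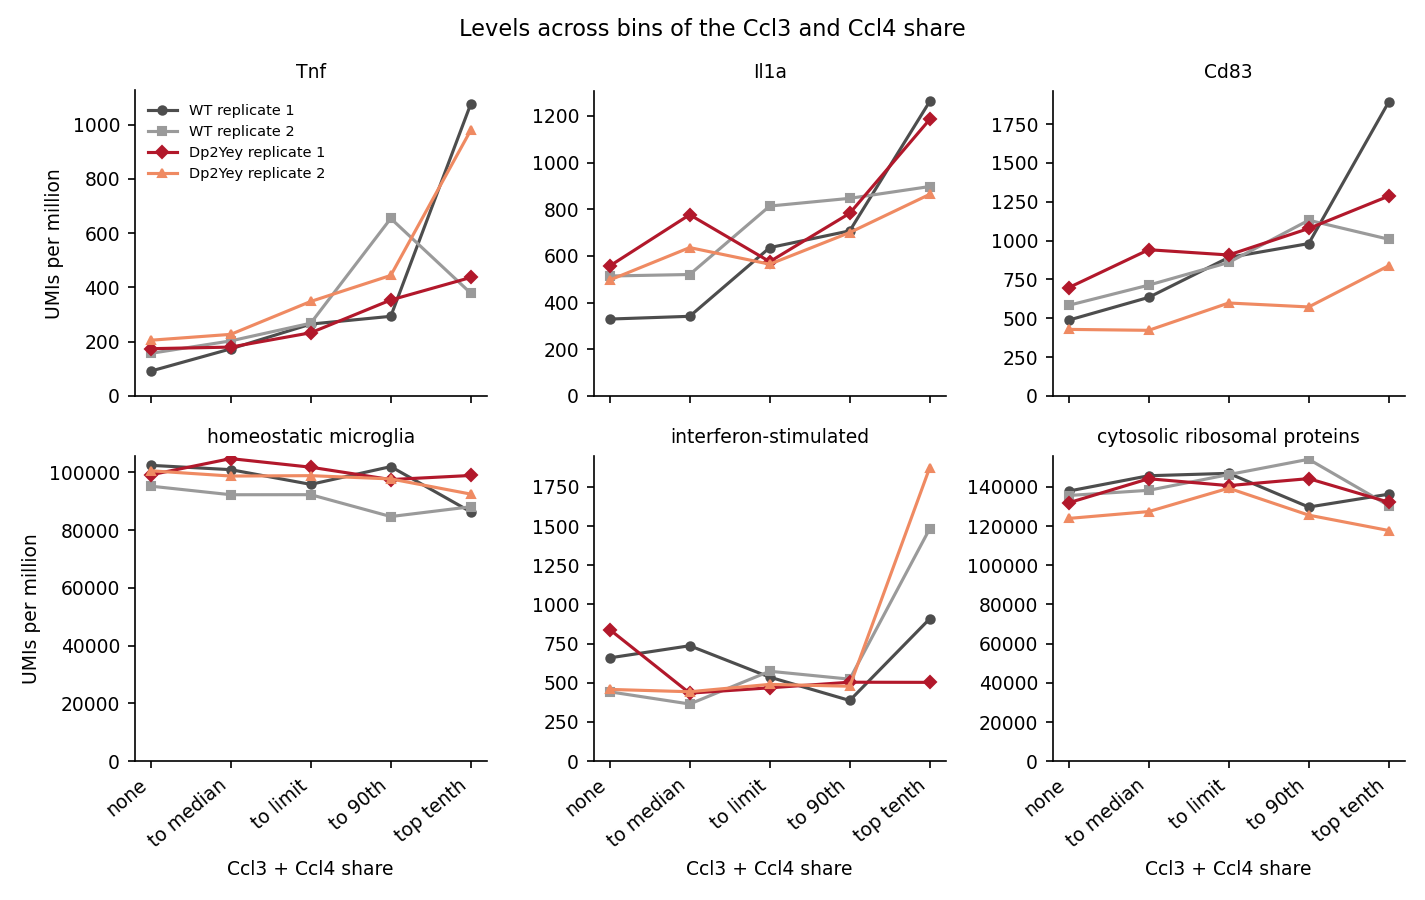
UPM (vertical axes, from 0) of 3 genes and 3 gene lists are plotted for microglia in 5 bins of the Ccl3 and Ccl4 share (horizontal axes: no UMI, up to the median, up to the limit of the top 25%, up to the 90th percentile, top 10%), 1 line per library. Tnf reaches 1077 and 980 in WT replicate 1 and Dp2Yey replicate 2, Il1a and Cd83 are higher in the top 10% than in the cells with none in each library, and interferon-stimulated genes reach 1483 and 1873 in replicate 2 of the genotypes.

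Both genotypes had chemokine-high microglia. They were 65 of 276 microglia (23.6%) in WT replicate 1, 140 of 514 (27.2%) in WT replicate 2, 86 of 369 (23.3%) in Dp2Yey replicate 1 and 194 of 781 (24.8%) in Dp2Yey replicate 2. The genotypes overlapped, with WT replicate 2 the highest and Dp2Yey replicate 1 the lowest. The mean was 24.1% (SD 1.08, n = 2) in Dp2Yey and 25.4% (SD 2.61, n = 2) in WT, a difference of -1.32 percentage points (exact permutation test, two-sided, p = 0.667, where the smallest p for 2 against 2 libraries is 0.33). Without WT replicate 2 the difference was 0.522. Within the top 25% the median share of Ccl3 and Ccl4 was 1.499, 1.52, 1.40 and 1.38%.

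Dp2Yey mice carry a further copy of the segment genes, and other genes can change with them. In chemokine-high microglia no gene passed the test between the genotypes in the fit without a block. None of 5794 genes was called by edgeR's quasi-likelihood test (0% of the genes tested), 229 had an unadjusted p under 0.05, and DESeq2 called none. With the replicate number as a block, 1 gene was called higher and 4 lower. The labels do not say which replicates were prepared on the same day. With WT replicate 1, WT replicate 2, Dp2Yey replicate 1 or Dp2Yey replicate 2 left out in turn, from 3 to 29 genes were called, in fits where the lone library of a genotype is assumed to vary as the other pair does. In the other microglia of the same mice, 0 of 8545 genes were called (0%), 270 had an unadjusted p under 0.05, and DESeq2 called none. With the replicate number as a block, 1 gene was called higher and 4 lower there too. There were 2 mice per genotype, and the test estimates the spread of a gene partly from that of all genes tested. A p-value therefore does not measure the spread of that gene between its 2 mice alone.

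Genes of the duplicated segment were higher in Dp2Yey mice in the chemokine-high cells as in the others. Their summed level, with Ccl3 and Ccl4 left out of the total, was 1083, 1173, 1701 and 1728 UPM in chemokine-high cells and 996, 997, 1547 and 1478 in other microglia. Of 61 segment genes in the file 18 were tested in chemokine-high cells, 17 were above 0, and the median log2 difference was 0.63, a fold of 1.55, against 0.01 for all genes tested. In 13 of the 18 (72.2%) both Dp2Yey libraries lay above both WT libraries, which held for 16.3% of all genes tested. In other microglia 23 of 23 were above 0 with a median of 0.56, a fold of 1.47, and in 21 of the 23 (91.3%) both Dp2Yey libraries lay above both WT libraries, against 14.6% of all genes. Without WT replicate 2 the median in chemokine-high cells was 0.91. None of these genes was called by edgeR, and 9 of the 18 and 15 of the 23 had an unadjusted p under 0.05.

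The values of the 3 segment genes of highest level after Cstb in chemokine-high cells are followed by those of Prmt2, at the start of the segment, and of Icosl. Itgb2, the common chain of leukocyte integrins, stood at 222, 178, 327 and 263 CPM, with both Dp2Yey values above both WT values (log2 0.58, SE 0.20, adjusted p = 0.999, 2 of 2 Dp2Yey libraries). Pttg1ip stood at 117, 98.5, 161 and 147 CPM, with both Dp2Yey values above both WT values (log2 0.54, SE 0.23). Lrrc3 stood at 89.6, 90.5, 149 and 139 CPM (log2 0.66, SE 0.23), also without overlap. Prmt2, an arginine methyltransferase, stood at 7.80, 12.9, 25.2 and 35.4 CPM (log2 1.46, SE 0.51). Icosl, which encodes a ligand that costimulates T cells, was the 1 tested segment gene below 0, at 42.9, 53.3, 50.3 and 40.3 CPM (log2 -0.17, SE 0.33), and at 0.04 without WT replicate 2.

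Cstb was both a segment gene and called in the state comparison. It encodes cystatin B, an inhibitor of lysosomal cathepsins, and was the 1 segment gene called higher in chemokine-high cells, of 21 tested with 16 above 0, at 190, 313, 270 and 318 CPM against 115, 108, 188 and 162, without overlap (fold 1.98, log2 0.98, SE 0.10, adjusted p = 9.3e-10, 4 of 4 libraries). Between genotypes it stood without overlap in other microglia, at 115, 108, 187 and 161 CPM (log2 0.64, SE 0.16, adjusted p = 0.81, both Dp2Yey libraries above both WT libraries). In chemokine-high cells it stood at 191, 315, 272 and 324 CPM and the genotypes overlapped, with WT replicate 2 close to the Dp2Yey libraries (log2 0.19, SE 0.21). That difference was -0.07 without WT replicate 1 and 0.65 without WT replicate 2. The interaction of genotype and state was not called for Cstb.

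**Figure D5:**
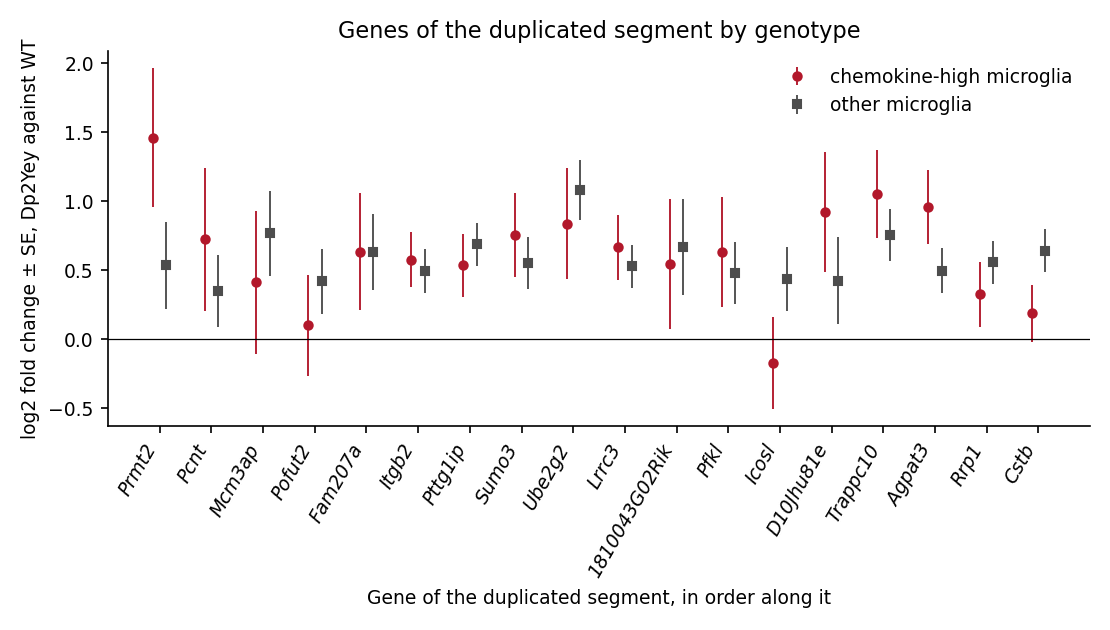
For the genes of the duplicated segment tested in both groups of microglia, in order along the segment (horizontal axis), the log2 fold change of Dp2Yey against WT (vertical axis) is shown in chemokine-high microglia (red circles) and other microglia (grey squares), with bars of 1 SE. Points lie above 0 except for Icosl in chemokine-high cells, at -0.17, and Cstb is lower in chemokine-high cells (0.19) than in other microglia (0.64).

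Outside the segment, the genes of smallest p between genotypes in chemokine-high cells were Slc1a2, Gm42418, Lpl, Ccl7 and Lars2, none of which passed without a block. Slc1a2, Lpl and Lars2 passed with the replicate number as a block. Slc1a2, the glutamate transporter of astrocytes, stood at 19.5, 46.9, 100.7 and 116 CPM (log2 1.53, SE 0.31, adjusted p = 0.15), with both Dp2Yey values above both WT values. The difference was 0.88 without doublets and 2.48 without WT replicate 2, where it was called. The 6 astrocyte markers, of which Slc1a2 is 1, stood at 142, 184, 282 and 270 UPM in these cells and at 197, 232, 243 and 232 in other microglia, with Slc1a3 the most abundant and Gja1, Aqp4 and Gfap at 0 in WT replicate 1, and their part in the result was not tested. Gm42418, which overlaps a ribosomal RNA repeat, stood at 10976, 16734, 8262 and 6741 CPM (log2 -0.89, SE 0.19, adjusted p = 0.15), and Lars2, a mitochondrial leucyl-tRNA synthetase, at 405, 729, 312 and 308 CPM (log2 -0.91, SE 0.21, adjusted p = 0.22). The chemokine Ccl7 stood at 7.80, 1.62, 20.1 and 40.3 CPM (log2 3.16), and 1 cell of Dp2Yey replicate 2 held 32 of its 33 UMIs there. For Lpl, at 31.2, 328, 12.6 and 59.8 CPM (log2 -2.30), the difference was 0.27 with the cell of most UMIs left out and 0.43 without WT replicate 2.

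Of the genes that set chemokine-high cells apart, none passed the test between genotypes within them in the fit without a block. Tnf stood at 670, 588, 398 and 637 CPM (log2 -0.25, SE 0.20), with the genotypes overlapping, and the difference was 0.02 without Dp2Yey replicate 1 and 0.50 with thinned cells. Csf1 stood at 277, 286, 227 and 175 CPM, both WT values above both Dp2Yey values (log2 -0.52, SE 0.20, adjusted p = 0.999), and the difference was 0.01 in the top 10%. Il1b stood at 109, 142, 234 and 149 CPM (log2 0.51, SE 0.24) and Rcan1 at 62.4, 53.3, 95.7 and 92.8 CPM (log2 0.73, SE 0.27), in both cases with the Dp2Yey values above the WT values and no call. C1qa and Itgam, a complement component and a complement receptor chain, had log2 differences of 0.03 and 0.19. NF-kB genes had a median of -0.12, with 4 of 27 above 0, and immediate early genes had a median of -0.08, with 9 of 30 above 0, against 0.01 over all genes. In other microglia the medians were 0.10, with 23 of 30 above 0, and 0.06, with 24 of 31 above 0.

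The difference between chemokine-high and other microglia was also compared between the genotypes, by the interaction of state and genotype. Of 7084 genes 11 were called by edgeR (0.155%), 8 with a larger and 3 with a smaller log2 difference in Dp2Yey mice, 341 had an unadjusted p under 0.05, and DESeq2 called none. With the cell of most UMIs left out 1 gene was called, Hspa1b, at a log2 value of 2.88. Hspa1b stood at 50.4, 9.62, 112 and 20.4 CPM in chemokine-high cells and at 305, 63.4, 100 and 24.6 in other microglia. It was lower in both WT libraries, by less in Dp2Yey replicate 2, and higher in Dp2Yey replicate 1 (interaction 2.66, SE 0.38, adjusted p = 2.9e-08). Hspa1b was not called without Dp2Yey replicate 1, at 2.37. The chemokines Cxcl2, Cxcl10 and Ccl12 were among the 11, and Tnf and Csf1 were not, with interaction values of -0.46 for Tnf (SE 0.16, adjusted p = 0.47; 0.46 with thinned cells) and -0.67 for Csf1 (SE 0.22, adjusted p = 0.34; -1.18 and called without Dp2Yey replicate 2), and the cytokine list had a median of -0.31 over 11 genes against 0.00 for all genes. From 6 to 14 genes were called when 1 library was left out, 6 being less than the full count by over 1.5 times.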

How the data were processed

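The authors deposited 1 count matrix per library of UMI counts per gene and barcode, made with Cell Ranger 3.0.2 on mm10 per the submitters' processing notes, and 30934 of 31055 gene IDs were matched to GENCODE M21. All 6464 barcodes were read. Doublets were called with Scrublet (scanpy 1.11.5), 54 of the barcodes with at least 200 genes (0.86%), and were kept. No cell was removed for mitochondrial RNA.

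UMIs were summed per library and group of cells without Ccl3 and Ccl4, filtered on low counts, scaled by TMM and tested with edgeR 4.0.16 (quasi-likelihood, limma 3.58.1, R 4.3.3) at a Benjamini-Hochberg adjusted p under 0.01. DESeq2 1.42.0 was run on the same sums. State was tested with the library as a block, genotype over 2 libraries against 2, and the interaction in a fit with the library as a block. The share of chemokine-high cells was tested by exact permutation (scipy 1.17.1, Python 3.11.15). Promoters came from RefSeq tables on GRCm38.p6.

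Genes of the rule were described with no test. Genes were named when they were among the 10 largest changes in each direction past the threshold with a mean of at least 20 CPM and the same direction in 4 libraries, among the 4 most abundant tested members of a gene list, or discussed in the study. For genotype and interaction the genes past the threshold were named, at most 10, or the 5 of smallest p where there were none. Genes chosen after their values were seen are marked so. The cells and lists were chosen with earlier results of these data known. Groups came from the sample labels. The removal of barcodes with over 1% globin UMIs and the omission of the cell with most UMIs of a gene were alternatives added after the data were seen. Some genes that the rule named are not reported here.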

Additional observations from a re-analysis of the deposited data

Results flagged for a closer look

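The difference between chemokine-high and other microglia itself differed between the genotypes for 11 genes, tested by the interaction of state and genotype (edgeR, adjusted p under 0.01). Values are the log2 difference in Dp2Yey mice minus that in WT mice. It was 2.66 for Hspa1b, which was lower in chemokine-high cells of both WT libraries. It was 1.60 for Slc1a2 and 2.39 for Sparcl1, transcripts typical of astrocytes. Slc1a2 stood at 19.4, 46.5, 99.9 and 114 CPM in chemokine-high cells and at 52.1, 79.9, 57.5 and 73.3 in other microglia. The 6 astrocyte markers summed to 142, 184, 282 and 270 UPM against 197, 232, 243 and 232 in other microglia, and their part was not tested.

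Among chemokines the value was 2.86 for Cxcl2, -1.20 for Cxcl10 and -0.84 for Ccl12, and it was -3.15 for Lgals3. In WT replicate 2, 1 cell of 38267 UMIs held 29 of 29 Cxcl2 and 69 of 93 Lgals3 UMIs of the chemokine-high cells, and another, of 6721 UMIs, held 146 of 181 Cxcl10 and 169 of 420 Ccl12 UMIs. Among globins the value was 5.43 for Hbb-bt, 2.91 for Hbb-bs and 3.30 for Hba-a1, transcripts concentrated in 6 barcodes of other microglia.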

How the results depend on the processing

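The state comparison called 90 genes, and 39 with DESeq2, 47 with cells thinned to 1500 UMIs, 26 without the library as a block, and 48 to 88 with 1 library left out. Between genotypes in chemokine-high cells the count was 0, 19 without a filter on low counts, and 3 to 29 with 1 library left out. In other microglia it was 0, 33 without that filter, 3 with the cell of most UMIs left out, and 0 to 24 with 1 library left out. The interaction called 11 genes, and 0 with DESeq2, 18 without the filter, 17 at a threshold of 0.05, 7 with the top 25% taken within each library, 0 with thinned cells, 4 in the top 10%, 6 with at least 2500 UMIs, 7 without doublets, 7 without globin barcodes, 1 with the cell of most UMIs left out, and 6 to 14 with 1 library left out. The share of chemokine-high cells differed by -1.32 percentage points, by 0.101 with the top 25% taken within each library, which itself sets each share near 25%, and by -3.16 to 0.522 with 1 library left out.

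The replicate block gave 5 calls between genotypes in chemokine-high cells and 5 in other microglia, each 1 higher and 4 lower, Slc1a2, Lpl and Lars2 among the former 5, and was run for these comparisons alone. Deviations of libraries with the same replicate number correlated at 0.0603 and 0.116 over 2 pairs, and the labels do not say which replicates were prepared on the same day.

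Several values turned direction, and the causes were not tested. With thinned cells Tnf had a genotype difference in chemokine-high cells of 0.50 and an interaction of 0.46, against -0.25 and -0.46. With the cell of most UMIs left out, Cxcl10 had a state difference of -0.021 and an interaction of 0.031, Hbb-bs an interaction of -0.94, and Lpl a genotype difference in chemokine-high cells of 0.27 and an interaction of 0.73. In the top 10% the interaction of Lgals3 was 2.26, and with DESeq2 that of Hbb-bs was -1.03. With 1 library left out, the genotype difference in chemokine-high cells ranged from -4.04 to 0.43 for Lpl and from -0.073 to 0.65 for Cstb, and crossed 0 also for the uncalled Sdc4 (-0.60 to 1.08), Bcl2a1d (-1.02 to 0.95), Chd9 (-0.29 to 0.32), Enc1 (-0.22 to 0.21), Pofut2 (-0.19 to 0.91), Pfkl (-0.27 to 1.45) and Tnf (-0.66 to 0.02). The interaction ranged from -5.90 to 8.93 for Hba-a1, from -4.38 to 0.26 for Lgals3, from -4.81 to 4.14 for Hbb-bs and from -1.91 to 0.36 for Cxcl10.

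There were 2 mice of each genotype, so that p-values between genotypes rest on few mice and partly on the spread of all genes tested. The limit of the top 25% fell within a continuous range. State differences compare cells of the same mice.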

Other observations

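Barcodes of at least 1500 UMIs outside the microglia held 2.08% of all Ccl3 and Ccl4 UMIs. Border macrophage barcodes, 41 in all, were few but not low in level, at 1362 UPM of Ccl3 and 976 of Ccl4. Other microglia stood at 473 and 1083 UPM. By library the 41 barcodes had 412, 1104, 0 and 1786 UPM of Ccl3. They had more Ccl3 than Ccl4, with a ratio of Ccl4 to Ccl3 of 0.717 against 3.16 in chemokine-high microglia. Dp2Yey replicate 2 gave 166 of their 226 Ccl3 UMIs. The ratio was 8.29 in WT replicate 1, 0.792 in WT replicate 2 and 0.373 in Dp2Yey replicate 2, and Dp2Yey replicate 1 had no UMI of either. Dividing-cell markers had 27 UMIs in chemokine-high cells over 4 of 4 genes, 25 of them in Dp2Yey replicate 1, where 1 cell held 23. Mitochondrial transcripts made up 2.57, 3.41, 2.74 and 2.05% of UMIs in chemokine-high cells, and no microglial cell exceeded 20%. Transcripts of the mitochondrial genome had a median log2 difference between genotypes of -0.42 in chemokine-high cells, with 0 of 13 above 0, and of -0.22 in other microglia, and none was called by edgeR.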
